A study of Homo sapiens with 6 samples.

Results

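Metallothioneins are small, cysteine-rich proteins that bind zinc and copper, and they were examined here together with 2 genes that belong to the same circuit. The 10 genes were taken by symbol from the 59050 entries of a bulk RNA-seq table: the metallothioneins MT2A, MT1A, MT1E, MT1F, MT1G, MT1L, MT1M and MT1X, the zinc-sensing transcription factor MTF1 and the zinc exporter SLC30A1. The cells were HFF, a fibroblast line whose name usually stands for human foreskin fibroblast. By the series' design text, HFF at about passage 18 were infected with the vector pLNC ER:RAS, which carries an oncogenic H-RAS that 4-hydroxytamoxifen (4-OHT) switches on, and resistant clones were kept under 200 µg/ml neomycin. The 4-OHT group (3 libraries) received 100 nM and was harvested a week later, when the cells showed oncogene-induced senescence. The DMSO group (3 libraries) is listed with the same passage, about 18, and the same neomycin, 200 µg/ml. Its treatment is labelled only as DMSO, with no word on whether its cells carried the vector or came from the same clones. The study compared the 2 groups as a model of senescence brought on by an oncogene. No group received 4-OHT without the transgene, so effects of the drug and of RAS cannot be told apart. Nothing in the labels says that replicates were separate cultures, so the p-values rest on a spread between samples that may be technical.

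Free zinc in the cytosol is lowered by metallothioneins, which bind it, and by SLC30A proteins, which move it out, and it is raised by SLC39A proteins, which bring it in. When zinc rises, MTF1 binds it and activates genes with metal response elements in their promoters, among them the metallothioneins and SLC30A1. Metallothionein genes are also known to respond to glucocorticoids, cytokines and oxidants.

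All 11 fibroblast markers, among them VIM, COL1A1 and COL1A2, averaged above 1 TPM. By the test described below, 7 fell and 3 rose in 4-OHT, against 29.9% of all tested genes called lower and 19.8% higher. Of 7 keratinocyte and epithelial, 6 melanocyte, 5 endothelial, 6 immune and 5 smooth muscle and pericyte markers, 2, 2, 1, 2 and 3 reached 1 TPM. Their summed levels were 32.8 to 43.2 TPM in 4-OHT and 37.5 to 52.5 in DMSO for keratinocytes and epithelia, 6.51 to 6.82 and 8.59 to 9.55 for melanocytes, 1.38 to 1.82 and 2.47 to 2.57 for endothelium, 59.7 to 67.3 and 60.1 to 90.5 for immune cells, and 101 to 108 and 129 to 135 for smooth muscle and pericytes. Single markers moved against these sums or with them: RGS5, a pericyte gene, rose (24.6 ± 3.99 against 3.3 ± 0.514 TPM) and ACTG2, a smooth muscle actin, fell (8.79 ± 0.401 against 55.5 ± 0.616 TPM). The immune marker CD14 rose (5.24 ± 1.7 against 2.14 ± 0.822 TPM, limma adjusted p = 0.0187, up to 0.0902 over the alternatives). Most of the epithelial sum was KRT10 (37.3 ± 5.26 against 45.2 ± 8.11 TPM). MITF (5.84 ± 0.334 against 7.13 ± 1.13 TPM) made up most of the melanocyte sum. Most of the immune sum was CD68 (57.4 ± 4.73 against 77 ± 16.6 TPM). None of KRT10, MITF and CD68 was called. These genes and RGS5, ACTG2 and CD14 are named after their values were seen. KRT1, TYR and DCT were listed at 0 in every library, and the part of other cell types in the metallothionein levels was not tested. Library sums were 998367 to 998843 TPM and read depth is unknown for TPM.

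In the 4-OHT libraries the family did not move as one. MT2A, by far its most abundant transcript, rose 1.3-fold, while MT1E fell 1.62-fold and MT1L, a transcribed pseudogene, rose 1.42-fold. Of the 10 genes, 6 reached a mean of 1 TPM, the length-scaled abundance of a transcript, over the 6 libraries and were tested, and 4 (MT1A, MT1F, MT1G and MT1M) did not. Of the 6 tested, 2 rose, 1 fell and 3 (MT1X, MTF1 and SLC30A1) did not pass the test, which was limma on log2(TPM + 1) with Benjamini-Hochberg adjustment over all 15272 genes tested and a threshold of 0.05. Over all tested genes 49.6% were called, 19.8% higher and 29.9% lower, so 3 calls among 6 is a share near the background. Under median-of-ratios scaling the calls over all genes split into 3844 higher and 3766 lower and under quantile normalization into 3650 and 3604, against 3018 and 4561 as deposited. The median log2 fold change (4-OHT minus DMSO) was 0.31 over the 6 members and -0.09 over all tested genes. The groups did not overlap in 5 of the 6, against 59.0% of all tested genes. In bulk RNA, a change in how many cells of a type are present and a change in RNA per cell cannot be told apart.

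RefSeq promoter windows (GRCh38.p14) were matched for 4 of the 10 genes, MT2A, MT1X, MTF1 and SLC30A1. The 250 bases before the start annotated in RefSeq were searched. These starts differ from the GENCODE gene positions given below, and the MT2A window lies inside the GENCODE span of that gene. The sequences below are shown because MT2A, MT1X and SLC30A1 are known targets of MTF1, and of these MT2A passed the test while MT1X and SLC30A1 did not. Capitals mark matches of the metal response element core, TGCACNC or TGCGCNC, on either strand, and each sequence runs 5′ to 3′ on the gene's own strand. The windows are chr16:56608334-56608583 (plus) for MT2A, chr16:56682220-56682469 (plus) for MT1X and chr1:211579162-211579411 (minus) for SLC30A1.
MT2A: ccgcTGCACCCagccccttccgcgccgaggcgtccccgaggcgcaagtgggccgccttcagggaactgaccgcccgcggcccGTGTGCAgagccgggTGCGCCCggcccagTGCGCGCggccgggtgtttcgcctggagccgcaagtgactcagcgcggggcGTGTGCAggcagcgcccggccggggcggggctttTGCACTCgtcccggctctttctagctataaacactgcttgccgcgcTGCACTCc
MT1X: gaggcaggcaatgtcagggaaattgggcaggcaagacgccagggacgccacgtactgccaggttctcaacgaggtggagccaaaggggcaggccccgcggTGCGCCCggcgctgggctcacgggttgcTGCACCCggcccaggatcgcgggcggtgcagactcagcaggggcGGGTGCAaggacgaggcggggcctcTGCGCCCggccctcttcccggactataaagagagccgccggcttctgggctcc
SLC30A1: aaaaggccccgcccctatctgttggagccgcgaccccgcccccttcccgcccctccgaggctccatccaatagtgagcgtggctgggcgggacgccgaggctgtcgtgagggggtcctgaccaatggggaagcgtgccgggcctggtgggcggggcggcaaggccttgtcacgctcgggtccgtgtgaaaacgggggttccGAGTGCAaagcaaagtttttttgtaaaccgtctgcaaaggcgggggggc

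The MT2A window held 7 matches of the core, the MT1X window 4, the SLC30A1 window 1 and the MTF1 window 0. The window of MT1H, a metallothionein outside the 10 genes, held 8, and its change did not pass the test (limma adjusted p = 0.202). Of 35116 promoter windows of the same length 24.8% held at least 1 match, 0.37% at least 4 and 0.0313% at least 7. The AP-1 site (TGAGTCA or TGACTCA, each the reverse complement of the other), bound by FOS and JUN proteins, occurred 1 time in the MT2A window and in none of the other 3, against 4.2% of all windows. The antioxidant response element core TGACNNNGC occurred 1 time each in the windows of MT2A, MT1X and SLC30A1, against 10.9% of all windows, and its match in MT2A overlaps the AP-1 match. MT1B, a metallothionein outside the 10 genes, was listed at 0 TPM in every library. Its window also held 1 AP-1 match, with 1 antioxidant and 3 metal response element matches. These matches describe the letters of the windows only. The windows of the other 6 genes, MT1A, MT1E, MT1F, MT1G, MT1L and MT1M, were not used here.

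MT2A (ENSG00000125148.6; chromosome 16, 56608199 to 56609497, plus strand, GRCh38) encodes the main human metallothionein of most tissues. It stood at 1330.5, 1279.7 and 1295 TPM in 4-OHT replicates 1 to 3 and at 1029, 977 and 996 TPM in DMSO replicates 1 to 3. All 3 4-OHT libraries lay above all 3 DMSO libraries. The means were 1302 ± 26.1 and 1001 ± 26.2 TPM (SD, n = 3 each), and the log2 fold change was 0.38 (SE 0.0336, limma adjusted p = 9.73e-05). By its mean level MT2A ranked 108th of the 59050 entries. Its change is of ordinary size in these cells, since 45.1% of the tested genes had a larger absolute log2 fold change.

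MT1E (ENSG00000169715.14; chromosome 16, 56625475 to 56627112, plus strand) encodes a further metallothionein and was the second most abundant. It was read at 68.1, 64.4 and 62.8 TPM in 4-OHT and at 104, 102 and 109 TPM in DMSO. Here every 4-OHT library was below every DMSO library, the opposite order to MT2A. The level fell from 105 ± 3.93 to 65.1 ± 2.72 TPM (log2 fold change -0.68, SE 0.0527, limma adjusted p = 4.91e-05).

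MT1L (ENSG00000260549.1; chromosome 16, 56617476 to 56618818, plus strand) lies between MT2A and MT1E and is annotated as a transcribed unprocessed pseudogene. It stood at 45, 54.3 and 60 TPM in 4-OHT against 40.9, 34.1 and 37.0 TPM in DMSO. The groups did not overlap, but 4-OHT replicate 1 was close to DMSO replicate 1. The log2 fold change was 0.49 (SE 0.115, limma adjusted p = 0.0105), and the call was lost when low genes were kept in the fit (0.0567, the highest of an adjusted p that ran from 0.00341 over the alternatives).

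MT1X (ENSG00000187193.8; chromosome 16, 56682424 to 56684196, plus strand) stands at the far end of the cluster. It was at 23.2, 31.7 and 39.9 TPM in 4-OHT and at 24.7, 22.7 and 23.9 TPM in DMSO. The 4-OHT libraries were spread widely: replicate 1 lay within the DMSO range and replicates 2 and 3 above it. The difference did not pass the test (log2 fold change 0.36, SE 0.176, limma adjusted p = 0.129). Without 4-OHT replicate 1 it did (0.56, adjusted p = 0.00819), and without 4-OHT replicate 3 it was 0.18 (adjusted p = 0.319).

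**Figure D1:**
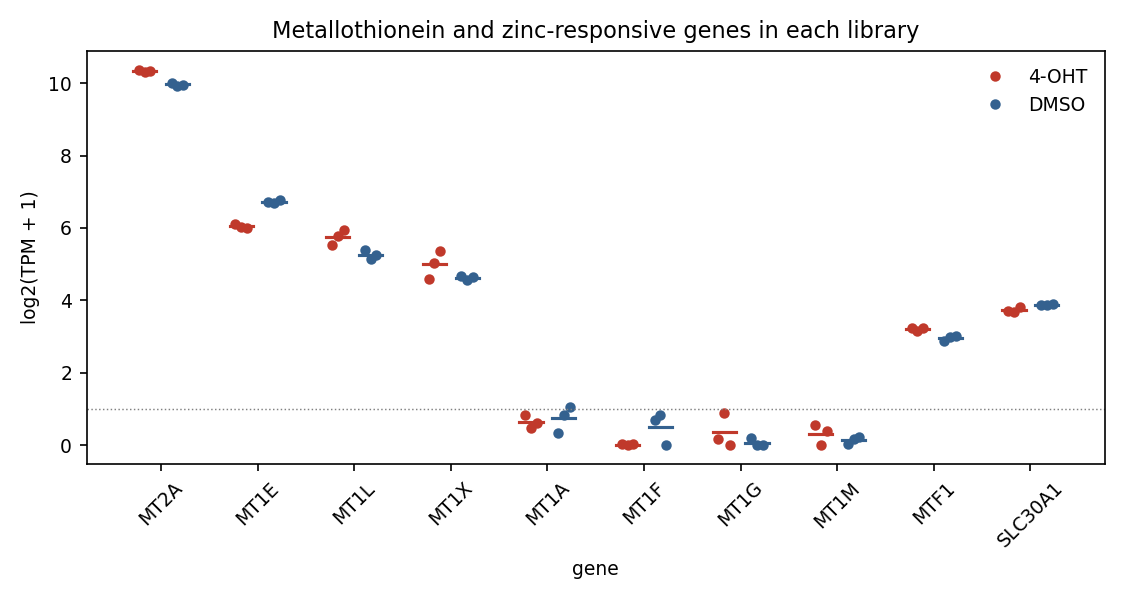
Level of each of the 10 genes in each library, on a log2(TPM + 1) axis; points are libraries (4-OHT red, DMSO blue), bars the mean of the 3 libraries of a group, and the dotted line marks 1 TPM. MT2A and MT1L lie higher and MT1E lower in 4-OHT, the 2 groups of MT1X overlap, and MT1A, MT1F, MT1G and MT1M stay near the bottom in both groups.

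The other 4 metallothioneins were near 0. MT1A was between 0.395 and 0.765 TPM in 4-OHT and between 0.272 and 1.07 TPM in DMSO. MT1M reached at most 0.48 TPM and MT1G at most 0.839 TPM, the latter in 4-OHT replicate 2 only, with 0.131 and 0 in the other 4-OHT libraries. MT1F was read at 0.614 and 0.773 TPM in DMSO replicates 1 and 2 but at 0.00248 TPM in DMSO replicate 3, and at 0.0158, 0 and 0.0132 TPM in 4-OHT. The groups overlapped for each of these genes, and none was tested.

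Of 12 further metallothionein rows, none was called. MT1H (1.36 ± 0.353 against 0.871 ± 0.265 TPM) and MT2P1, a processed pseudogene of MT2A (3.9 ± 1.55 against 3.5 ± 1.21 TPM), were the only ones to be tested (limma adjusted p = 0.202 and 0.775). MT1B, MT1HL1, MT1CP and MT4 were listed at 0 in all 6 libraries, MT3 was listed at 0 in 5, and MT1JP, MT1DP, MT1XP1, MT1P1 and MT1P3 averaged under 1 TPM. MT1IP is not analysed here. Along chromosome 16, MT2A, MT1L and MT1E stood side by side and MT1X at the far end, with genes of at most 1.77 TPM in any library (MT1H) between MT1E and MT1X, and MT3 and MT4 before MT2A. In order of position, MT2A and MT1L rose, MT1E fell, and the change of MT1X did not pass the test.

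**Figure D2:**
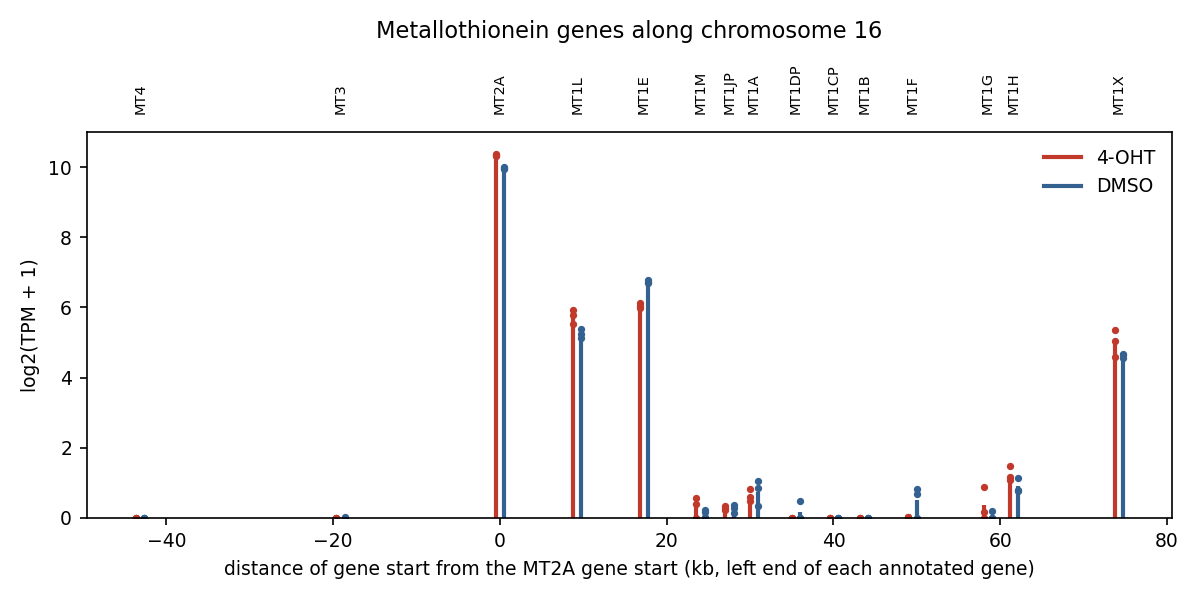
Metallothionein genes of the chromosome 16 cluster, placed by the distance in kb of each annotated gene's left end from that of MT2A; lines are the mean over the 3 libraries of a group of log2(TPM + 1), points the libraries. MT2A, MT1L, MT1E and MT1X carry nearly all of the signal, and the genes between MT1E and MT1X reach at most 1.77 TPM in a library.

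Because paralogs can exchange reads, the levels of the 8 metallothionein members were also added up within each library. The sum was 1468, 1431 and 1458 TPM in 4-OHT and 1199.6, 1137 and 1168 TPM in DMSO. It was thus 1.24-fold higher in 4-OHT (1453 ± 19 against 1168 ± 31.4 TPM), with no overlap of the groups. The exact permutation test gave p = 0.1 (2-sided), the smallest value that 3 against 3 libraries allow.

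Without MT2A the direction turned. The 7 MT1 genes together were at 138, 152 and 164 TPM in 4-OHT and at 171, 160.1 and 172 TPM in DMSO (log2 ratio of the means -0.15, exact permutation p = 0.2, 2-sided). These groups overlapped. That sum holds MT1E. The MT1 genes without MT1E were at 69.5, 87.2 and 101 TPM in 4-OHT and at 66.6, 58.5 and 62.2 TPM in DMSO. They were 1.38-fold higher in 4-OHT with no overlap (exact permutation p = 0.1, 2-sided). This sum leaves out the only member called lower, so its direction and p-value are no separate result. MT2A made up 89.6 ± 0.937% of the summed level in 4-OHT and 85.7 ± 0.312% in DMSO. MT1E made up 4.48 ± 0.167% in 4-OHT and 9 ± 0.339% in DMSO, and for both genes the 3 shares of a group lay apart from those of the other. The shares of MT1L (3.66 ± 0.538% against 3.19 ± 0.204%) and MT1X (2.18 ± 0.582% against 2.03 ± 0.0344%) overlapped between the groups. The 4 shares of a library are parts of 1 sum and so are not independent of each other.

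MT1E and MT1L are neighbours whose directions were opposite. The ratio of MT1E to MT1L TPM was 1.51, 1.19 and 1.05 in 4-OHT and 2.55, 2.98 and 2.96 in DMSO. Added together they were at 113, 119 and 123 TPM in 4-OHT against 145, 136 and 146 TPM in DMSO, still with every 4-OHT library lower. Fitted as 1 gene, a setting chosen after the data were seen, the pair had a log2 fold change of -0.27 (limma adjusted p = 0.00421). The rise of the MT1L row is therefore smaller in TPM than the fall of the MT1E row.

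**Figure D3:**
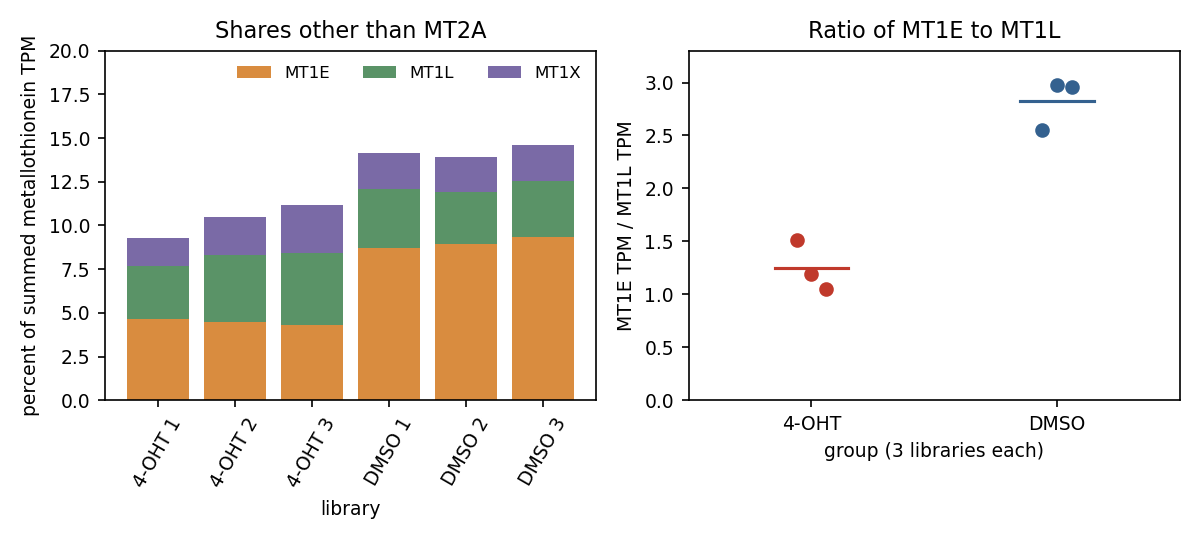
Left, share of the summed metallothionein TPM held by MT1E, MT1L and MT1X in each library, as stacked bars in percent (nearly all of the rest is MT2A); right, ratio of MT1E to MT1L TPM, points being libraries and bars the mean of 3. The MT1E share is between 4.31% and 4.64% in 4-OHT and between 8.69% and 9.36% in DMSO, and the ratio runs from 1.05 to 1.51 and from 2.55 to 2.98.

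The likeness of the transcripts bears on how far the rows can be told apart. In GENCODE 29 the MT1L-201 transcript (411 bases) and the MT1E-201 transcript (704 bases) were 85.2% identical over 418 aligned positions. Of the 50-base windows of the MT1E transcript 5.34% occurred without mismatch in a transcript of another gene, of MT1L 4.42%, of MT2A 4.88% and of MT1X 45.1%. For MT1X most of these lay in AC026461.1, an annotated transcript on the same strand of the same locus that was listed at 0 in all 6 libraries, and outside it the share was 16%. The handling of reads that match several places is not given in the sources used here, nor is the strand setting. Their part in the values of these paralogs was not tested.

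MTF1 (ENSG00000188786.9; chromosome 1, 37809567 to 37859620, minus strand) encodes the transcription factor that senses zinc. It was at 8.45, 7.88 and 8.5 TPM in 4-OHT and at 6.3, 6.95 and 7.15 TPM in DMSO. The 3 4-OHT libraries were all above the DMSO libraries, yet the difference missed the threshold (log2 fold change 0.25, SE 0.094, limma adjusted p = 0.0618). It passed under median-of-ratios scaling (0.34, adjusted p = 0.0216), under quantile normalization (0.49, adjusted p = 0.00435) and with no variance trend (adjusted p = 0.0293), over a range of 0.00435 to 0.163.

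SLC30A1 (ENSG00000170385.9; chromosome 1, 211571568 to 211578742, minus strand) encodes the exporter that carries zinc across the plasma membrane, and it is a classic target of MTF1. It was at 12, 11.8 and 13.1 TPM in 4-OHT and at 13.7, 13.5 and 14.0 TPM in DMSO. The 4-OHT libraries were all below the DMSO libraries, by an amount that did not pass the test (log2 fold change -0.15, SE 0.076, limma adjusted p = 0.143). Under quantile normalization, which moved the log2 fold changes of all genes up by a median of 0.131, the value was 0.00405 (adjusted p = 0.969). The directions of MT2A, MT1L and MT1E held under that scaling (0.45, 0.49 and -0.71) and under median-of-ratios scaling (0.48, 0.59 and -0.59).

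The wider zinc transport system was read from the same fit. Of 14 zinc importers of the SLC39A family 11 were tested: 4 fell, none rose and 7 did not pass, with a median log2 fold change of -0.13 against -0.09 over all tested genes. The share that fell is near the 29.9% of all tested genes called lower. SLC39A11 fell from 18.6 ± 0.462 to 10.2 ± 0.519 TPM (log2 fold change -0.81, limma adjusted p = 0.000117). SLC39A1, a zinc importer of the plasma membrane, was at 80.2, 88.6 and 89.5 TPM in 4-OHT and at 155, 139 and 147 TPM in DMSO (-0.77, limma adjusted p = 6.72e-05), with the groups well apart. SLC39A3 fell from 35.3 ± 4.64 to 24.1 ± 3.32 TPM (limma adjusted p = 0.0113), a call lost with no filter on low values (0.0589).

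SLC39A10, an importer whose transcript is known to fall when zinc rises, was the other of the 4 and was named after its values were seen. It stood at 7.25, 9.22 and 8.28 TPM in 4-OHT and at 10.3, 11.9 and 12.2 TPM in DMSO (-0.43, limma adjusted p = 0.0174). Its call was lost under quantile normalization (-0.23, adjusted p = 0.131), with low genes kept (0.0522) and without DMSO replicate 2 (0.0565) or 3 (0.0583). With no filter on low values only 2 importers were called. Under median-of-ratios scaling 1 importer rose and 4 fell.

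Of 10 exporters of the SLC30A family, SLC30A1 included, 6 were tested: 2 rose, none fell and 4 did not pass, with a median log2 fold change of 0.16. Over all tested genes 19.8% were called higher and 49.6% in either direction. The 2 of 6 exporters called are above the first share and below the second. Both that rose fill vesicles of the secretory pathway with zinc. SLC30A7 was at 20, 19.7 and 20.5 TPM in 4-OHT and at 16, 16.6 and 15.8 TPM in DMSO (0.30, limma adjusted p = 0.00687). SLC30A5 was at 64.7 ± 4.27 against 54.6 ± 3.53 TPM (0.24, limma adjusted p = 0.0277). The SLC30A5 call was lost when low genes were kept, without the variance trend, with a replicate block, and without 4-OHT replicate 2 or 3 or DMSO replicate 3 (adjusted p = 0.0544 to 0.0851), which left 1 exporter called. Under median-of-ratios scaling and under quantile normalization 3 exporters rose.

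**Figure D4:**
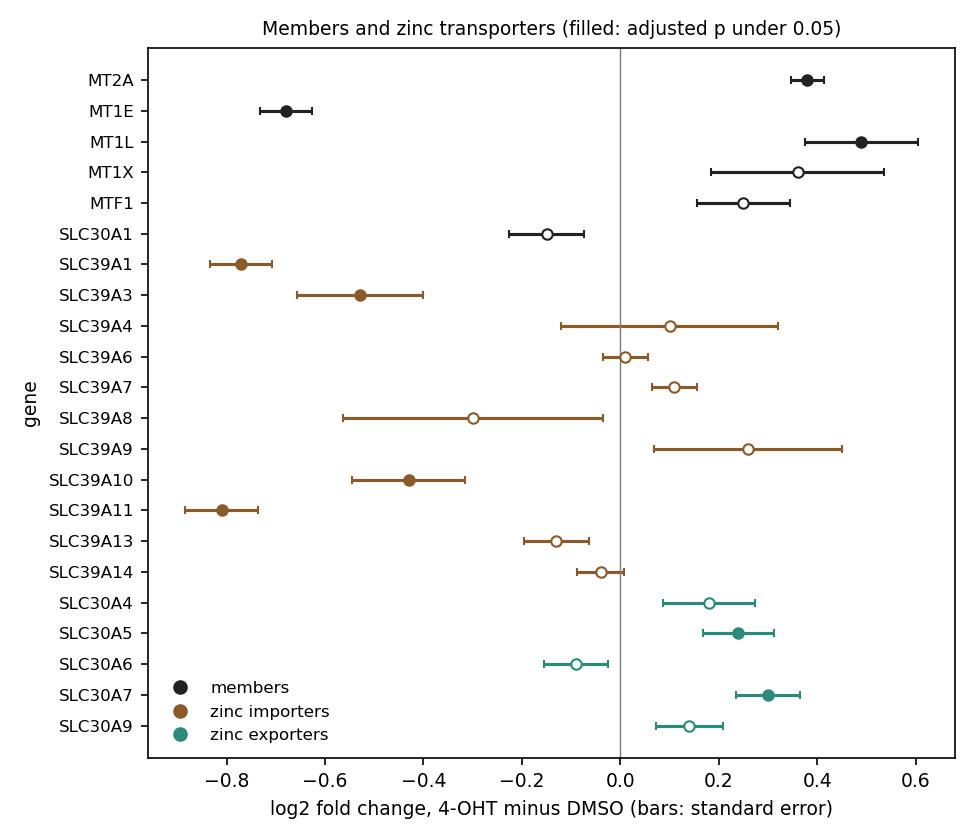
Difference of 4-OHT from DMSO in log2(TPM + 1) with its standard error for the 6 tested members and the other tested zinc importers and exporters; filled points passed the test at an adjusted p under 0.05. The filled importers, SLC39A1, SLC39A3, SLC39A10 and SLC39A11, lie left of 0, and the filled exporters, SLC30A5 and SLC30A7, lie right of 0 by less.

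Genes that answer to metals and oxidants went both ways. Of 12 tested, 7 rose and 3 fell (median log2 fold change 0.48), against 19.8% of all tested genes called higher and 29.9% lower. Those that rose most were TXNRD1 (378 ± 9.16 against 179 ± 3.92 TPM), HMOX1, which degrades haem (63.2 ± 3.4 against 34.3 ± 2.84 TPM), and GCLM, which helps make glutathione (36.0 ± 0.846 against 23.3 ± 1.45 TPM). Those that fell were the heat shock genes HSPA1B (43.7 ± 2.2 against 117 ± 6.96 TPM), HSPA1A (58.1 ± 2.72 against 131 ± 8.21 TPM) and DNAJB1 (120.3 ± 2.85 against 152 ± 3.14 TPM). HSPA1A and HSPA1B are near-identical copies whose rows may share reads. HMOX1 and HSPA1A, both known to respond to heavy metals, moved in opposite directions (log2 fold changes 0.87 and -1.16, limma adjusted p = 9.36e-05 and 8.34e-06). This pair was set side by side after the values were seen, and a response to metals was not tested.

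Copper handling, which metallothioneins share with zinc handling, rose in 7 of 11 genes and fell in none (median log2 fold change 0.37), against 19.8% of all tested genes called higher and 29.9% lower. The copper pump ATP7A was at 11.1, 11.2 and 12.9 TPM in 4-OHT and at 4.05, 4.34 and 4.46 TPM in DMSO (1.26, limma adjusted p = 6.13e-05), a larger change than in any of the 6 tested members. The metalloreductase STEAP3 was at 34.9 ± 1.13 against 18.2 ± 3.66 TPM (limma adjusted p = 0.00122). SLC31A2 was at 6.46 ± 1.82 against 3.54 ± 0.992 TPM (limma adjusted p = 0.0325), a call lost with low genes kept (0.126) and without 4-OHT replicate 1 (0.0874) or DMSO replicate 2 (0.0934) or 3 (0.0775). The calls of ATP7B (limma adjusted p = 0.0261, up to 0.102 over the alternatives) and of COX17, whose groups overlapped (0.042, up to 0.142), were also lost under some settings; both are named after their values were seen. Under quantile normalization 7 of the copper genes rose and 1 fell.

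Glucocorticoid-responsive genes went both ways: of 10 tested, 3 rose and 4 fell (median log2 fold change -0.42), against 19.8% and 29.9% of all tested genes. FKBP5, a chaperone that glucocorticoids induce strongly, fell from 14.1 ± 0.793 to 4.46 ± 0.385 TPM (-1.47, limma adjusted p = 2.3e-05). CEBPD (7.7 ± 0.957 against 28.6 ± 1.25 TPM) and SGK1 (17.8 ± 5.45 against 47.9 ± 3.92 TPM) fell as well. ERRFI1, a feedback inhibitor of the epidermal growth factor receptor, rose from 23.6 ± 1.31 to 158 ± 0.535 TPM (2.70, limma adjusted p = 1.55e-07). DUSP1 (61.9 ± 4.02 against 51.8 ± 1.15 TPM) and KLF9 (16.5 ± 0.199 against 13.8 ± 0.315 TPM) rose by far less, and the KLF9 call was lost with a replicate block (adjusted p = 0.0586) and without 4-OHT replicate 1 (0.0558) or 3 (0.0562) or DMSO replicate 3 (0.0571). PER1 is not analysed here.

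Of 10 other zinc-linked genes 8 were tested, 2 rose and 3 fell, against 19.8% and 29.9% of all tested genes. PGF, a vascular growth factor and reported MTF1 target, was at 101, 98.5 and 86.1 TPM in 4-OHT against 22.7, 23.4 and 18.6 TPM in DMSO (2.09, limma adjusted p = 5.68e-06). ALPL, a zinc-dependent phosphatase, rose from 5.85 ± 0.388 to 22.5 ± 2.15 TPM. The zinc-finger factors KLF4 (1.34 ± 0.186 against 22.5 ± 1.52 TPM) and ZNF658 (1.28 ± 0.203 against 3.07 ± 0.423 TPM) fell. The carbonic anhydrase CA12 fell too (5.03 ± 0.88 against 8.28 ± 0.556 TPM), a call lost under quantile normalization (adjusted p = 0.0518).

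Genes on either side of the cluster on chromosome 16 did not share 1 direction. Of 8 tested, 2 rose, 2 fell and 4 did not pass, against 19.8% called higher and 29.9% lower over all tested genes. OGFOD1 (50.7 ± 1.18 against 41.1 ± 1.13 TPM) and BBS2 (43.5 ± 1.41 against 36.8 ± 2.24 TPM) rose, BBS2 not without 4-OHT replicate 1 (limma adjusted p = 0.0605). NUDT21 (49.7 ± 1.85 against 66.8 ± 3.89 TPM) and HERPUD1 (72.5 ± 8.61 against 163 ± 7.73 TPM) fell.

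Genes outside the members that averaged at least 5 TPM were compared with the summed metallothionein level. Rows with symbols of clones, long intergenic RNAs or unnamed reading frames were left out. Among the genes compared, the 5 that followed the sum most closely over the 6 libraries were COQ10B, ESR1, SMTN, STRA6 and CRIP2. Their Pearson correlations with it were 0.9981 to 0.9989 on log2 values. These describe 6 libraries in 2 groups that lie apart, and 17.9% of the 10541 genes compared exceeded 0.9. ESR1 was at 73.3, 70.5 and 73.4 TPM in 4-OHT and at 49.4, 46.0 and 47.0 TPM in DMSO, and whether reads of the ER:RAS transgene enter its row was not tested.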

How the data were processed

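TPM were taken as the authors deposited them, 59050 entries in 6 libraries. The submitters' processing notes name StringTie, STAR, Trim Galore 0.6.6 and the build GRCh38. The annotation is not given in the sources used here, nor is the strand setting. Per the labels, libraries were built from 1 µg of total RNA. In DMSO replicate 3 there was 1 value below 0, set to 0.

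Genes averaging 1 TPM or more were compared on log2(TPM + 1) by limma 3.58.1 in R 4.3.3, with no covariate and a trend in the eBayes variance prior, and p-values were adjusted by Benjamini-Hochberg over 15272 genes. Fold changes on this scale understate low genes. Sums were compared by an exact permutation test (scipy 1.17.1). Alternatives changed the filter, pseudocount, scaling, variance trend, robustness, block and libraries in turn. The fit was tested on simulated data in which far fewer genes changed than were called here. Gene positions and transcripts come from GENCODE 29, promoters from RefSeq, and identity from blastn 2.17.0.

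The members and lists were chosen with earlier results of these data known. Named genes are all members, other metallothionein rows, up to 3 genes per direction and list with the largest change among those called, and the 5 genes most alike in pattern.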

Additional observations from a re-analysis of the deposited data

How the results depend on the processing

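The calls of MT2A and MT1E kept their direction and side of the threshold under all 14 alternatives they share, and 2 to 4 of the 6 tested members were called. The summed metallothionein level had a log2 ratio of 0.31, and 0.41 under median-of-ratios scaling, 0.38 under quantile normalization and -0.15 without MT2A; leaving out each library in turn gave 0.295 to 0.334. SLC30A1 turned to 0.00405 under quantile normalization and MT1L to -0.268 when summed with MT1E, since MT1E is the more abundant and fell. Exporters called numbered 2, and 1 when low genes were kept, without the variance trend and with the replicate block, 3 under median-of-ratios scaling and under quantile normalization, and 1 to 2 without 1 library. Importers called numbered 4, 2 with no filter on low values, 3 under quantile normalization, 5 (1 of them higher) under median-of-ratios scaling, and 3 to 5 without 1 library (3 without DMSO replicate 2 or 3, 5 without 4-OHT replicate 2). Apart from the 2 sums, whose construction changes them, the cause of these shifts was not tested. Same-numbered libraries correlated by 0.0555, 0.0327 and 0.0237 in their deviations from the group means over 11055 genes, so the numbers were not taken to pair them; the block changed the count over all genes from 7579 to 7065 and no member's call. Depth is unknown, so members under 1 TPM cannot be placed against a detection limit.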
